A study of Mus musculus with 8 samples.

Results

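The nuclear-encoded genes of the mitochondrial respiratory chain were compared between the ovaries of WT mice and of GOAT KO mice. GOAT, ghrelin O-acyltransferase, attaches the fatty acid that the hormone ghrelin needs to act on its receptor. Members were the symbols of the gene count table that begin with Nduf, Uqcr, Cox4 to Cox8 or Atp5, together with Sdha, Sdhb, Sdhc and Sdhd. Of 96 such symbols, 4 symbols containing ps were dropped, which left 92 members of 45583 symbols. They comprised 36 subunits of complex I, 8 assembly factors of complex I, 4 subunits of complex II, 8 of complex III, 20 of complex IV and its close paralogues, and 16 of complex V. RNA was taken from 1 ovary of each of 8 female mice, 3 weeks old, on a C57/Bl6 background. The WT libraries came from animals 1118, 1119, 1120 and 1121, and the GOAT KO libraries from animals 1139, 1140, 1141 and 1146, both groups being bred from heterozygous crosses. The labels name no treatment. Each library held between 16147216 and 19481798 reads on genes.

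The respiratory chain consists of large protein complexes in the inner mitochondrial membrane. Complexes I, III and IV pass electrons from NADH to oxygen and pump protons, complex II feeds in electrons from succinate, and complex V, the ATP synthase, lets the protons flow back to make ATP. Most subunits are encoded in the nucleus and a small set in the mitochondrial genome. Oocytes and steroid-making ovarian cells are rich in mitochondria, and the first step of steroid synthesis takes place inside them. Whole ovaries were sequenced, so that fewer cells of a type and less RNA per cell cannot be told apart.

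The labelled genotype was first checked on the targeted gene. Mboat4, which encodes GOAT, lies at chr8:34115030-34125182 (GRCm38) and had 1, 1, 1 and 3 reads in WT 1118, 1119, 1120 and 1121. It had 5, 7, 7 and 8 reads in the libraries labelled GOAT KO 1139, 1140, 1141 and 1146. The reads were thus more in the libraries labelled GOAT KO, the opposite of what those labels say for an intact transcript (two-sided exact permutation test of CPM, p = 0.0286, the smallest that 4 against 4 libraries allow). The part of the gene that was deleted was not given in the sources used here, so these counts do not settle the genotype, and every direction below is that of the libraries as labelled. No member lay within 5 Mb of Mboat4.

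The promoters of the members were searched for letters known from binding sites of factors that regulate respiratory genes. RefSeq promoters (GRCm38.p6, 250 bases before to 50 after the start) were found for 76 of the 92 members. The NRF1-type letters GCGCATGCG, on either strand, occurred in 10 of the 76, or 13.2%, against 1.95% of 27025 genes and 2.61% of 17491 protein-coding genes. With any base in the centre, GCGCANGCG, the shares were 28.9% of members, 7.03% of all genes and 9.63% of protein-coding genes. The YY1-type letters AAGATGGCG occurred in 8 members, or 10.5%, against 1.64% of all and 2.14% of protein-coding genes. The ETS-type letters CCGGAAGT occurred in 5, or 6.58%, against 4.31% and 5.69%, and the ERR-type letters TCAAGGTCA in Atp5g3 and Sdhd, or 2.63%, against 0.466% and 0.377%. A match is a description of letters and not of a bound site.

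The NRF1-type match and its surroundings before the start are shown for a subunit each of complexes I, IV and V and an assembly factor, to let the shared letters be seen in unlike contexts, and a YY1-type match for Atp5j, the F6 coupling subunit. Capitals mark the matched letters, where the match on both strands makes the palindrome of 10 letters, and the sequences run 5′ to 3′ on the strand of the gene.
Ndufa11 (chr17:56717677-56717736, plus): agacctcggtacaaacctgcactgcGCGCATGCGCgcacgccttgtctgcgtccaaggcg
Cox6a1 (chr5:115349086-115349145, minus): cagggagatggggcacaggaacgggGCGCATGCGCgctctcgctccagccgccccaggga
Atp5g2 (chr15:102671055-102671114, minus): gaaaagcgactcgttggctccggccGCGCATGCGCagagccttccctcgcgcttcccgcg
Ndufaf4 (chr4:24897945-24898004, plus): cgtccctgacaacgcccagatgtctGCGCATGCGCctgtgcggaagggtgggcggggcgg
Atp5j (chr16:84835031-84835089, minus): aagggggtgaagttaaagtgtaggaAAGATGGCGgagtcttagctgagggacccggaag
The match began 60 bases before the start in Ndufa11, 162 in Cox6a1, 42 in Atp5g2, 113 in Ndufaf4 and 88 in Atp5j. In 7 of the 10 members with the NRF1-type letters the match lay wholly before the start, the other 3 being Ndufaf5, Uqcrc1 and Uqcr11. Most YY1-type matches lay after the start, unlike that of Atp5j. They began 23 bases after it in Ndufc1, 24 in Atp5j2, 25 in Ndufs7, 30 in Ndufa9, 34 in Ndufs6 and 36 in Ndufs4. Atp5sl had a match 27 bases after the start and another 53 before it.

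All 5 complexes were expressed in every ovary. Levels between genes are given as RPKM, in which reads are scaled to exon length and library size. The summed RPKM of the 92 members was 7147 ± 703 in WT (SD, n = 4) and 7610 ± 244 in GOAT KO (SD, n = 4). The highest single level was that of Atp5b, the catalytic beta subunit of the ATP synthase, at 633.9 RPKM averaged over the 8 libraries. Atp5g3, which encodes the c subunit of the rotating membrane ring, followed within complex V at 443.5 RPKM. In complex IV the highest levels were those of Cox4i1 at 359.0 RPKM and Cox6a1 at 255.7 RPKM, both regulatory subunits around the catalytic core. Complex III was led by Uqcrh, the hinge protein, at 222.0 RPKM and Uqcr10 at 139.9 RPKM, complex I by the accessory subunits Ndufa6 at 145.6 RPKM and Ndufa7 at 143.3 RPKM, and complex II by Sdha, the flavoprotein that oxidises succinate, at 116.5 RPKM. The 8 complex I assembly factors lay between 6.08 RPKM for Ndufaf6 and 24.98 RPKM for Ndufaf2. All 8 lay below the lowest of the 4 complex II subunits, Sdhc, which anchors that complex in the membrane and had 30.3 RPKM.

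Of the 92 members, 86 passed the filter on low counts and were tested. With edgeR's quasi-likelihood test over 16601 genes, 2 of the 86 were higher in GOAT KO at an unadjusted p under 0.05, Ndufa9 and Atp5e, and 0 were lower. Over all genes, 2.49% were higher and 2.13% lower by the same rule, so the share of members, 2.33% higher, was near the background. With a log2 fold change beyond 0.3 required as well, Atp5e alone remained among the members, against 1.58% of all genes higher and 1.27% lower. With a change beyond 0.5 in either direction, 0 members and 1.67% of all genes were called. At an adjusted p under 0.05, 0 members and 0.0241% of all genes passed, and the lowest adjusted p of any member was 0.983 by edgeR. DESeq2 and limma-voom likewise called 0 members at an adjusted p under 0.05, and Ndufa9 and Atp5e at an unadjusted p under 0.05.

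Ndufa9, an accessory subunit that helps join the peripheral arm of complex I to its membrane arm, was the clearest member. Its CPM, in which reads are scaled to library size with TMM factors, was 64.6, 80.3, 81.2 and 78.6 in WT 1118, 1119, 1120 and 1121. It was 83.6, 92.5, 88.6 and 85.9 CPM in GOAT KO 1139, 1140, 1141 and 1146. The groups did not overlap, although the highest WT library and the lowest GOAT KO library were close. Ndufa9 was the only member of the 86 with every GOAT KO library above every WT library, and 0 members lay wholly below, where 1.64% of all genes lay wholly above and 1.27% wholly below. The log2 fold change was 0.20 with an SE of 0.0772 (edgeR unadjusted p = 0.0240, adjusted p = 0.983), and it was 0.13 without WT 1118, the low library (unadjusted p = 0.0369). Without GOAT KO 1140 or GOAT KO 1141 it missed the threshold, with edgeR unadjusted p-values of 0.0692 and 0.0525.

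Atp5e, the epsilon subunit of the ATP synthase, had 48.8, 86.1, 96.1 and 78.1 CPM in WT 1118, 1119, 1120 and 1121. It had 103.9, 92.8, 109.0 and 94.0 CPM in GOAT KO 1139, 1140, 1141 and 1146. WT 1118 was far below the other libraries, and WT 1120 lay within the GOAT KO range. The log2 fold change of 0.37, with an SE of 0.165, was the largest of the 86 (edgeR unadjusted p = 0.0464, adjusted p = 0.983). It came to 0.20 without WT 1118, with an unadjusted p of 0.0392. Leaving out WT 1121 or any single GOAT KO library took its p above the threshold, with edgeR unadjusted p-values from 0.0513 to 0.111.

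**Figure D1:**
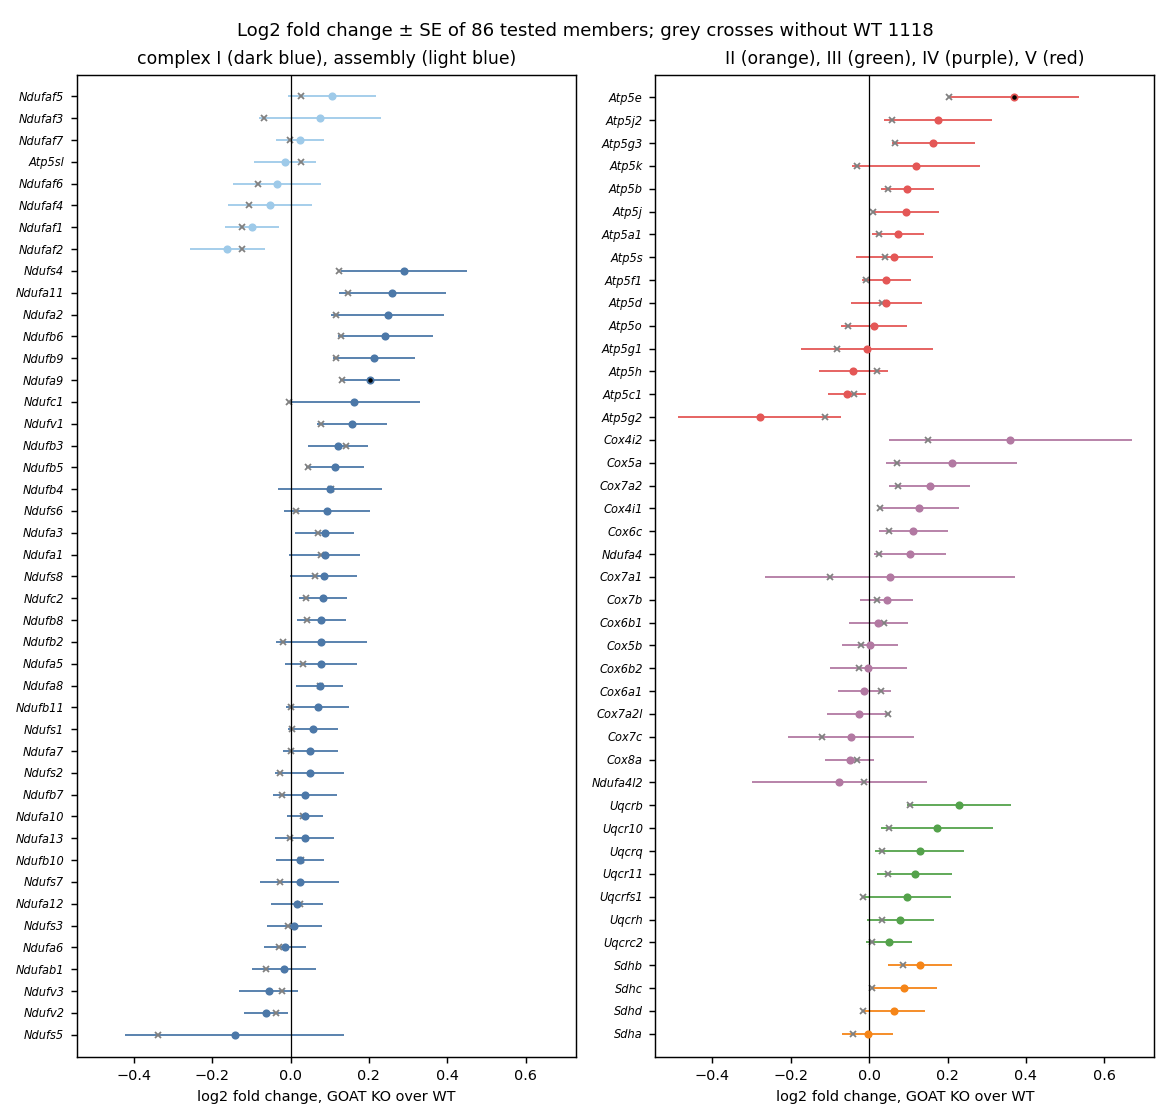
Log2 fold change of GOAT KO over WT (x axis) for each of the 86 tested members (y axis), coloured by complex, with points for the 8-library fit, bars for ± 1 SE, black centres for an unadjusted p under 0.05 and grey crosses for the fit without WT 1118. Most points lie just right of 0, the 2 members Ndufa9 and Atp5e have black centres, and most crosses lie nearer to 0 than their points.

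The median log2 fold change of the 86 members was 0.07, with 65 positive values, or 75.6%, and 21 negative, while over all genes tested the median was within 0.001 of 0 and 49.9% were positive. By complex the median was 0.08 for complex I, 0.08 for complex II, 0.12 for complex III, 0.03 for complex IV and 0.06 for complex V. Without WT 1118 these medians were 0.03, -0.006, 0.03, 0.025 and 0.02, in the same order. The median of complex IV was -0.007 without WT 1121 and -0.002 without GOAT KO 1139, and that of complex III was 0.22 without WT 1120. The complex I assembly factors, which are not part of the finished complex, had a median of -0.02 with 3 of 8 positive, and 0.02 without WT 1120. In complex III all 7 tested members were positive, from 0.05 for Uqcrc2 to 0.23 for Uqcrb, and all 7 were lowest in WT 1118. Without WT 1118 they ran from -0.02 for Uqcrfs1, the Rieske iron-sulfur protein, to 0.10 for Uqcrb. The difference between complexes was not tested. The catalytic core of complex I, with 7 members, had a median of 0.05 and its 29 accessory subunits had 0.08, and without WT 1118 they had -0.006 and 0.03. The 5 members of the head of complex V had 0.07, and the 10 tested members of its stalk and membrane part had 0.05, and without WT 1118 they had 0.03 and a value within 0.001 of 0. Without WT 1118 the median of all 86 was 0.02, with 53 positive values, or 61.6%, against 49.4% of all genes. Of the 10 members with the NRF1-type letters 8 were tested, and 5 of the 8 had a positive log2 fold change, from -0.28 for Atp5g2 to 0.26 for Ndufa11. None of the 8 passed the test.

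The WT libraries were more spread than the GOAT KO libraries. The summed CPM of all members was 7301, 8320, 8993 and 8176 in WT 1118, 1119, 1120 and 1121. It was 8827, 8474, 8872 and 8444 in GOAT KO 1139, 1140, 1141 and 1146. WT 1118 was the lowest and WT 1120 the highest of the 8 libraries, and the 4 GOAT KO libraries lay between WT 1119 and WT 1120. The SD of the 4 WT sums was 696 CPM, and that of the 4 GOAT KO sums was 226 CPM. WT 1118 held the lowest value of 53 of the 86 members, or 61.6%, where it held the lowest value of 23.5% of all genes tested. WT 1120 held the highest value of 35 of the 86, or 40.7%, where it held the highest value of 19.8% of all genes tested. WT 1120 also stood apart over all genes, with a chi-square per gene of at least 16.5 against each other WT library, where the other WT pairs had 3.96 to 8.95. GOAT KO 1139 stood apart in its group by the same measure, with at least 11 against each other GOAT KO library, where the other GOAT KO pairs had 4.51 to 6.28.

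**Figure D2:**
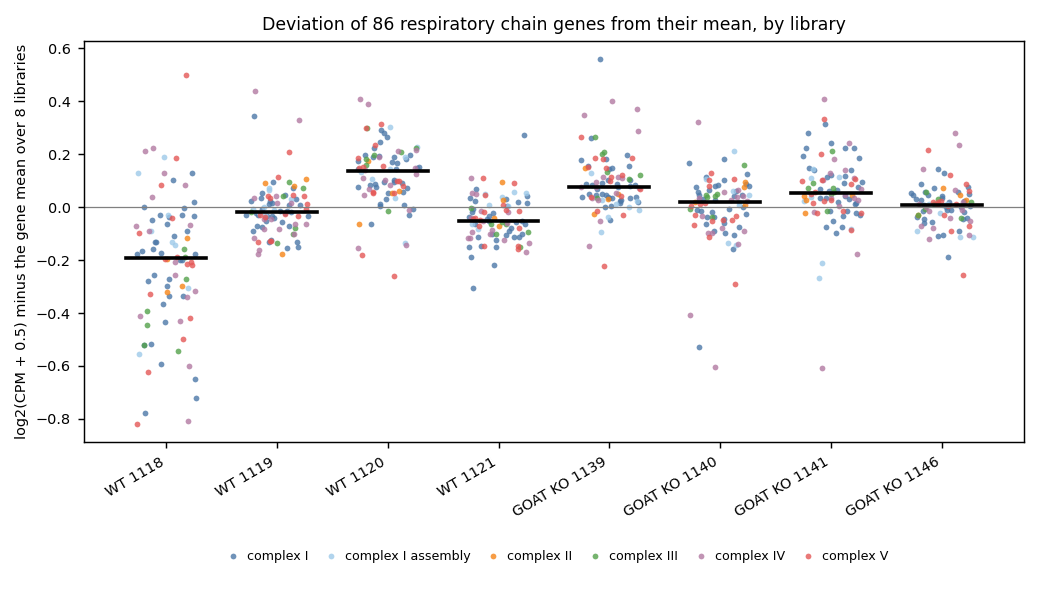
Deviation of log2(CPM + 0.5) from the gene's mean over the 8 libraries (y axis) for the 86 tested members in each library (x axis), coloured by complex, with a black line at the median. The median was -0.19 in WT 1118 and 0.14 in WT 1120, and between -0.05 and 0.08 in the other 6 libraries.

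In WT 1118 the deficit was uneven among members. Against the mean of the other 3 WT libraries on the log2(CPM + 0.5) scale, 16 of the 86 members were lower by more than 0.5, and 17 were higher. The lowest was Ndufs5 at -0.95, an accessory subunit on the intermembrane side of complex I, and the highest was Atp5g2 at 0.52, another gene for the c subunit. By complex, the median deviation of WT 1118 from the mean of all libraries was -0.18 for complex I, -0.25 for complex II, -0.39 for complex III, -0.15 for complex IV and -0.20 for complex V. Ndufs4, Ndufc1, Cox5a and Atp5k, together with Atp5e and Ndufs5 above, were among the members lower by more than 0.5. Ndufs5, whose counts are low, had 51, 122, 119 and 118 reads in WT 1118, 1119, 1120 and 1121. It had 133, 57, 95 and 78 reads in the GOAT KO libraries, so that both groups held a low library and the log2 fold change of -0.14 (SE 0.279), the lowest in complex I, did not pass the test (edgeR unadjusted p = 0.621).

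Other gene lists also deviated in WT 1118 and WT 1120, some in the same directions as the members and some not. The 83 tested cytosolic ribosomal protein genes had a median deviation of -0.22 in WT 1118 and 0.11 in WT 1120. The 74 tested mitochondrial ribosomal protein genes had -0.09 and 0.13, and the 38 other respiratory chain and assembly genes -0.17 and 0.13. The 13 genes of the tricarboxylic acid cycle, which supplies electrons to the chain, had -0.08 and 0.04, and the 13 tested regulators of mitochondrial genes 0.01 and 0.06. For markers of ovarian cell types the median deviations in WT 1118 and WT 1120 were -0.26 and 0.25 for 12 granulosa genes, -0.63 and 0.57 for 6 tested theca and steroidogenic genes, 0.08 and -0.06 for 14 oocyte genes, and 0.38 and -0.05 for 10 tested leukocyte genes. They were 0.43 and -0.86 for 5 tested blood genes, -0.85 and -1.12 for 8 tested fat genes, and 0.10 and -0.14 for 6 endothelial genes. WT 1118 also had the smallest share of reads assigned to a single feature, 60.7%, against 61.6% to 62.6% in the others. The part of these values in the result was not tested.

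The number of members called depended on WT 1120. Without WT 1120, 21 of the 86 members were higher in GOAT KO at an unadjusted p under 0.05, or 24.4%, where 5.15% of all genes were higher and 5.4% lower by the same rule. Of these 21 members, 10 belonged to complex I, 1 to complex II, 4 to complex III, 3 to complex IV and 3 to complex V, and 0 members were lower. Beside the 14 members named further on they held Ndufa4, Ndufa5, Ndufv1, Uqcr10, Uqcrb, Uqcrh and Atp5g3. The log2 fold changes of the 21 ran from 0.15 to 0.49, and the lowest adjusted p of any member was 0.395 by edgeR. In 25 of the 86 members, or 29.1%, every GOAT KO library lay above WT 1118, 1119 and 1121, where 5.71% of all genes did so and 5.11% lay below. In 20 of the 21 members WT 1120 lay above the lowest GOAT KO library, and in 12 it was the highest of all 8 libraries. Other lists also held more calls without WT 1120 than with all libraries: 18 of 83 cytosolic ribosomal protein genes were then higher, or 21.7%, as were 6 of the 38 other respiratory chain and assembly genes, 7 of 12 granulosa genes and 3 of 6 theca and steroidogenic genes.

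With GOAT KO 1139 left out as well, 20 of the 86 members were higher, or 23.3%, against 4.81% of all genes higher and 4.65% lower. All 20 were among the 21. Leaving out WT 1118 alone gave 2 members, Ndufa9 and Atp5e, against 2.16% of all genes higher and 1.63% lower. Leaving out both WT 1118 and WT 1120, which leaves 2 WT libraries, gave 16 members higher, or 18.6%, against 3.23% of all genes higher and 3.27% lower. Leaving out GOAT KO 1139 in addition gave 15 members higher, or 17.4%, and 1 lower, Ndufs5, against 3.62% of all genes higher and 3.71% lower. These last sets of libraries were chosen after the values were seen, and no member passed an adjusted p of 0.05 in any of the sets.

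**Figure D3:**
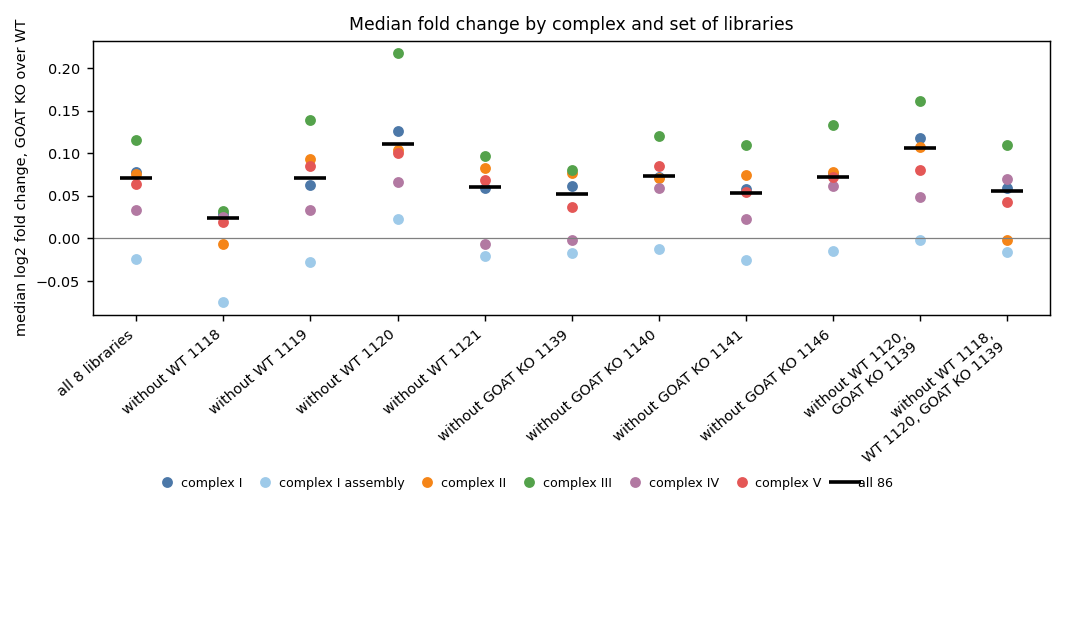
Median log2 fold change of GOAT KO over WT (y axis) for the tested members of each complex (coloured points) and for all 86 members (black bars), for all 8 libraries and for sets with libraries left out (x axis). The median of all 86 runs from 0.02 without WT 1118 to 0.11 without WT 1120, and complex III is highest and the complex I assembly factors are lowest in most of the sets.

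The 14 members that were higher in all 4 sets without WT 1120 came from every complex. They were 14 of the 86, where 1.81% of 16641 genes were higher in all 4 sets, which share most of their libraries. They were Ndufa2, Ndufa3, Ndufa9, Ndufa11, Ndufb6, Ndufb9, Ndufs4 and Ndufs8 of complex I, Sdhb of complex II, Uqcr11 of complex III, Cox5a and Cox7a2 of complex IV, and Atp5e and Atp5j2 of complex V. They were chosen by these same values, so the values describe them and test nothing further. Ndufa11, a membrane arm subunit, had 22.6, 29.7, 38.8 and 29.3 CPM in WT 1118, 1119, 1120 and 1121. It had 35.1, 34.6, 40.7 and 33.9 CPM in GOAT KO 1139, 1140, 1141 and 1146. WT 1120 lay inside the GOAT KO range and the other 3 WT libraries below it. Cox5a, a structural subunit of cytochrome c oxidase, had 33.4, 46.8, 66.7 and 45.3 CPM in the WT libraries in the same order. It had 62.3, 52.2, 52.1 and 56.3 CPM in the GOAT KO libraries, so WT 1120 was above all of them. The 21 members called without WT 1120 had a median exon length of 659 bases and the other 65 members 1115 bases. Across the 86 members, log2 exon length and log2 fold change in the 8-library fit were weakly related (Pearson r = -0.21, Spearman rho = -0.23), as a description over genes that share the same libraries. For log2 mean RPKM and log2 fold change the values were 0.27 and 0.25. For log2 exon length and the deviation of WT 1118 from the other WT libraries they were 0.10 and 0.09.

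Succinate dehydrogenase, complex II, links the tricarboxylic acid cycle to the chain and is encoded wholly in the nucleus. Sdha had 311, 359, 322 and 361 CPM in WT 1118, 1119, 1120 and 1121. It had 331, 355, 332 and 331 CPM in GOAT KO 1139, 1140, 1141 and 1146. The groups overlapped fully and the log2 fold change was -0.004 (SE 0.0642, edgeR unadjusted p = 0.951). Sdhb, the iron-sulfur subunit on chromosome 4 (chr4:140961203-140979193), had 87.5, 88.7, 113.3 and 95.6 CPM in the WT libraries. It had 111.4, 100.9, 103.5 and 105.7 CPM in the GOAT KO libraries, above 3 of the 4 WT libraries but below WT 1120. Its log2 fold change of 0.13 (SE 0.0818) did not pass the test with 8 libraries (edgeR unadjusted p = 0.141) and was 0.21 with an unadjusted p of 0.00400 without WT 1120. The membrane anchors Sdhc and Sdhd had log2 fold changes of 0.09 and 0.06, neither of which passed the test, and 0.006 and -0.02 without WT 1118. Both were lowest in WT 1118, at 76.5 CPM for Sdhc against 93.0 to 103.2 in the other 7 libraries, and at 99.7 CPM for Sdhd against 124.4 to 129.7.

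Complex III takes electrons from ubiquinol to cytochrome c. Uqcrb, which lies near the ubiquinone-binding site, had 14.8, 22.5, 24.4 and 19.6 CPM in WT 1118, 1119, 1120 and 1121. It had 25.3, 24.4, 22.9 and 22.7 CPM in GOAT KO 1139, 1140, 1141 and 1146. WT 1120 lay within the GOAT KO libraries, and the log2 fold change of 0.23 (SE 0.133) did not pass the test (edgeR unadjusted p = 0.115). Uqcrh, on chromosome 4 (chr4:116066965-116075071), had 106.2, 110.1, 139.8 and 116.2 CPM in the WT libraries. It had 132.5, 120.3, 128.8 and 117.5 CPM in the GOAT KO libraries, all of them between WT 1121 and WT 1120. The log2 fold change was 0.08 (SE 0.0857, edgeR unadjusted p = 0.374). Uqcr10, a small subunit, had a log2 fold change of 0.17 (SE 0.143, edgeR unadjusted p = 0.249), and Uqcrc2, a core protein, 0.05 (SE 0.0592, edgeR unadjusted p = 0.420).

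Uqcrc1, the other core protein of complex III, stood apart in the files themselves. It was listed with 0, 1, 5 and 4 reads in WT 1118, 1119, 1120 and 1121. It was listed with 4, 4, 3 and 4 reads in GOAT KO 1139, 1140, 1141 and 1146. The deposited splice junctions nevertheless held 746, 1026, 1017 and 1090 reads across its annotated introns in the WT libraries. They held 949, 844, 1146 and 912 reads in the GOAT KO libraries. The gene lies at chr9:108936633-108949623 on the plus strand (GRCm38), 11 of its 17 annotated introns carried reads, and no annotated gene overlaps it. The gene counts therefore do not give its level, and it was named after its values were seen. The cause was not tested.

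**Figure D4:**
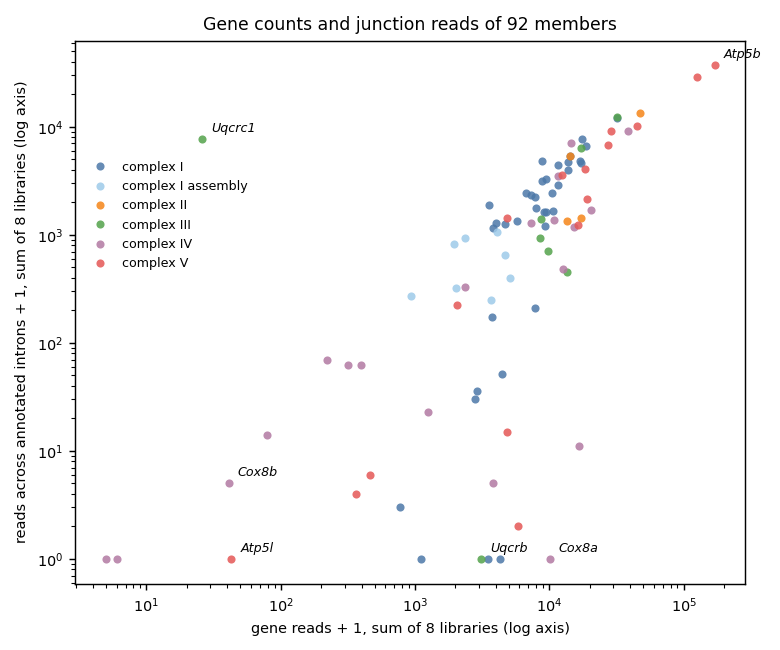
Reads counted on each of the 92 members (x axis, log scale, sum of 8 libraries plus 1) against reads across the member's annotated introns (y axis, log scale, sum of 8 libraries plus 1), coloured by complex. Most members lie along a diagonal, while Uqcrc1 has 25 gene reads and 7730 junction reads, and Cox8a has 10103 gene reads and 0 junction reads.

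The opposite pattern was also present. Among the 79 members with at least 1000 gene reads in all, the median was 21.9 junction reads per 100 gene reads, with quartiles of 7.63 and 31.1. In 13 of them there were fewer than 2 per 100, and 5 had none, Cox8a, Ndufa12, Ndufb3, Ndufb4 and Uqcrb. Their exon structure could therefore not be checked from the junctions. Single junctions also dropped out of single libraries. In Ndufs4, which is needed for a late step of complex I assembly, the intron chr13:114317030-114351447 carried 0 reads in WT 1118 and 130, 150 and 148 in WT 1119, 1120 and 1121. It carried 172, 154, 150 and 134 reads in the GOAT KO libraries, while another intron of the same gene, chr13:114288867-114307816, carried 157 reads in WT 1118 and 192 to 261 elsewhere. The introns chr13:114307891-114316856 and chr13:114351527-114387958 also carried 0 reads in WT 1118. The latter carried 0 in GOAT KO 1139 too, where the gene count was 114.8 CPM. The gene count of Ndufs4 was 55.7 CPM in WT 1118 and 92.2 to 114.8 CPM in the other libraries, and its log2 fold change of 0.29 (SE 0.161), the highest in complex I, did not pass the test (edgeR unadjusted p = 0.101). It was 0.12 without WT 1118, below the 0.15 of Ndufa11, and 0.40 without WT 1120, where it passed (unadjusted p = 0.0284).

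Over 627 annotated member introns, 13 had 0 reads in WT 1118 while carrying at least 20 in 6 or more other libraries. The other libraries had between 0 and 3 such introns each. The 13 introns belonged to 9 members, whose median deviation in WT 1118 from the other WT libraries was -0.19 on the log2 scale, against -0.22 for the other 77 tested members. WT 1118 had reads on 292 of the 627 introns, and the other libraries on 312 to 334. Reads across member introns per 100 gene reads of members were 23.9 in WT 1118 and 23.2 to 24.02 in the others. The 9 members ran from -0.82 for Ndufs4 to 0.14 for Ndufaf2, and the part of the empty introns in the low counts was not tested.

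Several subunits of complexes IV and V exist as paralogues, some of them known from heart, muscle, lung or testis, and their shares were compared per length. In 6 of the 8 families 1 form carried at least 96.7% of the RPKM in every library. Cox4i1 held 99.3% ± 0.200 of the Cox4 family in WT (SD, n = 4) and 99.2% ± 0.227 in GOAT KO (SD, n = 4), beside Cox4i2, a form known from lung and induced in low oxygen. Cox6a1 held 99.7% in both groups, beside the heart and muscle form Cox6a2. Atp5g3 held 98.9% ± 0.422 of the 3 c-subunit genes in WT and 99.2% ± 0.123 in GOAT KO, with Atp5g2 and Atp5g1 making up the rest. Junction reads per 100 gene reads were 1.08 in Atp5g1 and 0.833 in Atp5g2, against 22.2 in Atp5g3. The counts of these minor forms could thus not be checked from the junctions. The share of Atp5g1 also depends on its exon length of 4912 bases, against 724 for Atp5g3. Cox7b held at least 99.8% in every library beside Cox7b2, which had 0 to 2 reads per library. Ndufa4, now placed in complex IV, held 98.1% ± 0.474 and 98.3% ± 0.478 beside Ndufa4l2, which is known to be induced by low oxygen.

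Only in 2 of the families did a second form hold more than 10%. Cox6b2, known as the testis form of the subunit that joins complex IV dimers, held 11.4% ± 0.687 in WT and 11.3% ± 0.311 in GOAT KO. Its level was 22.5 ± 2.45 RPKM in WT (SD, n = 4) and 22.5 ± 1.65 RPKM in GOAT KO (SD, n = 4), with a log2 fold change of -0.002 (SE 0.0981, edgeR unadjusted p = 0.988) that turned positive in some sets of libraries. Of Cox7a2, Cox7a1 and Cox7a2l, Cox7a2 held 58.9% ± 5.46 in WT and 62.1% ± 0.878 in GOAT KO. Cox7a2l held 39.6% ± 5.63 and 36.5% ± 1.11. The muscle form Cox7a1 held 1.43% in both groups. WT 1118 stood apart in this family, in that Cox7a2 was lowest, at 64.7 CPM, and Cox7a2l highest, at 104.4 CPM. Over the other 7 libraries Cox7a2 had 74.8 to 95.1 CPM and Cox7a2l 82.3 to 96.1 CPM.

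**Figure D5:**
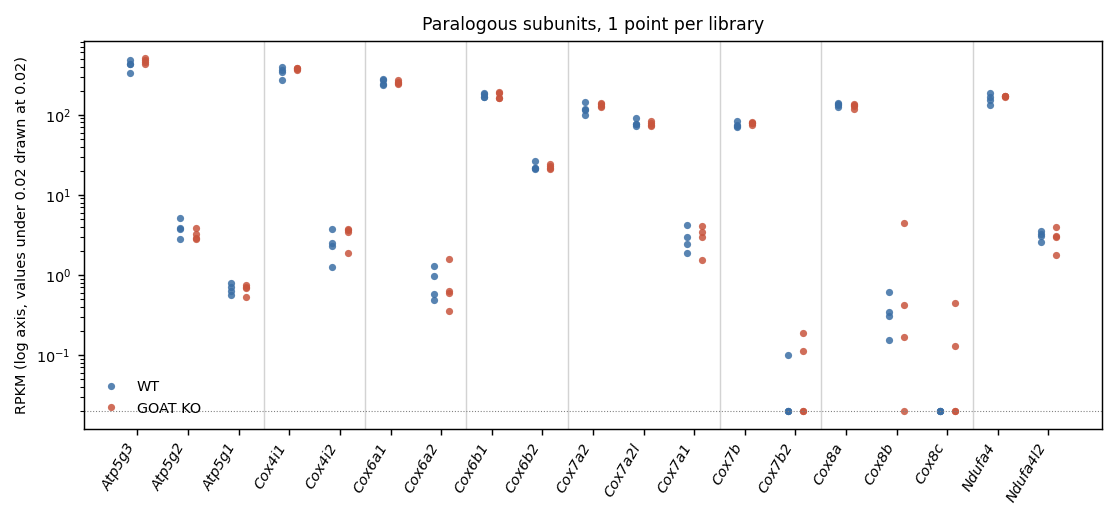
RPKM (y axis, log scale, values under 0.02 drawn at 0.02) of 19 paralogous subunits (x axis), grouped by family, with 1 point for each of the 4 WT (blue) and 4 GOAT KO (red) libraries. The leading form of each family lies near or above 70 RPKM, Cox6b2 lies between 20.9 and 26.2 RPKM, and a single GOAT KO library lifts Cox8b to 4.49 RPKM.

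None of the paralogues passed the test between the groups with all 8 libraries, while Atp5g3, Cox7a2 and Ndufa4 were among the 21 called without WT 1120. Cox4i2 had the largest fold change of complex IV, 0.36 with an SE of 0.310 (edgeR unadjusted p = 0.271), from 0.991, 1.83, 2.96 and 1.96 CPM in WT 1118, 1119, 1120 and 1121. It had 2.87, 1.47, 2.97 and 2.67 CPM in the GOAT KO libraries, with both groups covering nearly the same range, and the log2 fold change was 0.15 without WT 1118 and 0.63 without WT 1120. Atp5g2 had the lowest fold change of all 86 members, -0.28 with an SE of 0.208 (edgeR unadjusted p = 0.208). Its values were 3.78, 2.78, 2.03 and 2.73 CPM in the WT libraries and 2.09, 2.81, 2.36 and 2.03 CPM in the GOAT KO libraries, and without WT 1118, the highest, the fold change was -0.11. Ndufa4l2 was the lowest of complex IV at -0.08 (SE 0.224, edgeR unadjusted p = 0.741). Cox4i1, Cox6a1, Cox6b1, Cox7b, Cox8a, Ndufa4, Atp5g1 and Atp5g3 had log2 fold changes between -0.05 for Cox8a and 0.16 for Atp5g3.

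The heart and muscle form Cox8b was high in 1 library only. It had 2, 1, 2 and 4 reads in WT 1118, 1119, 1120 and 1121. It had 27, 1, 3 and 0 reads in GOAT KO 1139, 1140, 1141 and 1146, and it had 4 junction reads in GOAT KO 1139 and 0 in the others. Cox8b is also known from brown fat, and the fat genes of that library were high as well. Adipoq, the adiponectin gene of fat cells, had 96.7 CPM in GOAT KO 1139 and 0.291 to 2.99 CPM in the other 7 libraries, Fabp4 had 286.8 against 4.83 to 14.4 CPM, and Cfd had 162.1 against 0.523 to 6.23 CPM. Of 8 tested fat genes, 6 were higher at an unadjusted p under 0.05, the others of these being Cidec, Retn and Plin1. Without GOAT KO 1139 none of them was, with edgeR unadjusted p-values from 0.0700 for Plin1 to 0.699 for Adipoq. Ucp1, which defines brown fat, had no more than 0.111 CPM in any library, and Cidea and Elovl3 had no more than 0.658 and 0.174 CPM. The part of fat tissue in the Cox8b value was not tested. The testis form Cox8c had 1 read in GOAT KO 1139, 4 in GOAT KO 1141 and 0 in the other 6 libraries, where 0 reads allow up to 3.

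The remaining members under the filter were few. Cox6a2 had 6 to 14 reads in WT and 4 to 21 in GOAT KO. Atp5l, the g subunit of the ATP synthase, had 3, 5, 9 and 6 reads in the WT libraries and 1, 5, 6 and 7 in the GOAT KO libraries, and 0 reads on any of its 3 annotated introns. It overlaps the annotated gene Gm30934, and the counting setting for strand and overlap was not given in the sources used here. With Uqcrc1, Cox7b2, Cox8b and Cox8c these are all 6 members that were not tested.

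Splice forms were read from the junctions in 2 members. Atp5c1, the gamma subunit that turns inside the ATP synthase head, has a cassette exon of 37 bases (chr2:10056770-10056806, GRCm38, minus strand) that is known to be skipped in heart and muscle. The share of reads that skipped it was 40.9%, 33.3%, 46.2% and 50.0% in WT 1118, 1119, 1120 and 1121, of 22 to 39 reads each. It was 46.2%, 45.2%, 39.5% and 47.2% in GOAT KO 1139, 1140, 1141 and 1146, of 31 to 43 reads each. Single shares carried wide exact 95% binomial intervals, such as 20.7% to 63.7% in WT 1118, which cover counting error only. The means, 42.6% ± 7.21 in WT and 44.5% ± 3.43 in GOAT KO (SD, n = 4 each), did not differ detectably at this depth (two-sided exact permutation test, p = 0.686). Both forms were thus seen in every library.

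Ndufv3, the smallest subunit of the flavoprotein part of complex I, has a long exon of 1092 bases (chr17:31527310-31528401) that is skipped in its short form. The short form led in all 8 ovaries, with skipping shares of 81.0%, 80.4%, 80.3% and 74.4% in WT 1118, 1119, 1120 and 1121. The shares were 81.1%, 74.6%, 73.5% and 77.1% in GOAT KO 1139, 1140, 1141 and 1146. The means were 79.0% ± 3.12 in WT and 76.6% ± 3.40 in GOAT KO (SD, n = 4 each), and the libraries of the groups overlapped (two-sided exact permutation test, p = 0.371). The difference of -2.43 percentage points ran from -3.99 without WT 1121 to -1.39 without GOAT KO 1141.

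Other genes of the pathway were counted in the same 8-library fit. Of the 38 other respiratory chain and assembly genes, among them Cyc1, Cycs, Surf1 and Sco1, 0 passed an unadjusted p of 0.05 in either direction, and their median log2 fold change was 0.03. Of 83 tested cytosolic ribosomal protein genes 5 were higher, or 6.02%, and 2 lower, or 2.41%, where 2.49% of all genes were higher and 2.13% lower. Of 74 tested mitochondrial ribosomal protein genes 0 were higher and 2 lower. Of the 13 genes of the tricarboxylic acid cycle, 0 passed and the median was 0.02. Of 13 tested regulators of mitochondrial genes, 1 was higher and 0 lower. That gene was Esrra, a nuclear receptor that drives respiratory chain genes, with 11.7, 12.5, 14.5 and 13.96 CPM in WT 1118, 1119, 1120 and 1121. It had 15.4, 16.9, 13.6 and 16.0 CPM in the GOAT KO libraries, so the groups overlapped at GOAT KO 1141, and its log2 fold change was 0.24 (SE 0.104, edgeR unadjusted p = 0.0444, adjusted p = 0.983). It did not pass without WT 1118, WT 1119, GOAT KO 1139, GOAT KO 1140 or GOAT KO 1146. All 13 mRNAs of the mitochondrial genome were listed at 0 in all 8 libraries, so the subunits encoded there could not be set beside the nuclear ones.

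Markers of the cell types that an ovary sample can hold were given beside these results. Of 12 granulosa genes, 4 were higher in GOAT KO at an unadjusted p under 0.05, Fshr, Inhba, Fst and Hsd17b1, and 0 were lower. Of 14 oocyte genes, 3 were higher, Nlrp5, Figla and Sohlh1. Of 10 tested leukocyte genes, 4 were lower, Adgre1, Lyz2, C1qb and C1qc. Of 14 tested striated muscle genes, 1 was higher, Ttn, and 2 were lower, Myh6 and Myh7, and of 4 tested oviduct genes, 1 was higher, Dnah9. Over all genes 2.49% were higher and 2.13% lower by the same rule. These shares were 2.16% and 1.63% without WT 1118, and 5.15% and 5.4% without WT 1120. With single libraries left out the counts of these markers moved. The granulosa count of higher genes ran from 2 (without WT 1118, WT 1121 or GOAT KO 1141) to 7 (without WT 1120), the leukocyte count of lower genes from 2 (without WT 1118, WT 1121 or GOAT KO 1146) to 5 (without WT 1120 or GOAT KO 1141), and the oocyte count from 0 (without GOAT KO 1141) to 5 (without GOAT KO 1146). Amh of the granulosa list was lower without WT 1121 or GOAT KO 1139. The Ttn call was kept only without WT 1118 or GOAT KO 1139, and the Myh7 call only without WT 1121 or GOAT KO 1140. Tnnc1 of the muscle list was called lower without WT 1118 or WT 1119. The oviduct count ran from 1 to 3, the highest without WT 1121. Fshr, Adgre1, Lyz2, Myh6 and Dnah9 were called in all 8 of these sets. Of the tested theca, blood and endothelial genes 0 were called with all 8 libraries. The granulosa genes summed to 8735 to 11130 CPM over the WT libraries and to 10490 to 11400 CPM over the GOAT KO libraries, lowest in WT 1118 as the members were. The leukocyte genes summed to 136.4 to 192.8 CPM over the WT libraries and to 107.0 to 147.0 CPM over the GOAT KO libraries. The part of these cell types in the members' values was not tested.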

How the data were processed

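The authors sequenced total RNA of 4 WT and 4 GOAT KO ovaries (50 bp single reads), aligned it to mm10 with TopHat2 2.0.14, assembled transcripts with StringTie 1.0.4 and deposited raw gene counts per symbol, junction read counts per library and percentages of reads mapped and assigned. The counting tool and its strand setting are not given in the sources used here. The members and gene lists were chosen with earlier results of these data known. Counts were tested with edgeR 4.0.16 (R 4.3.3; quasi-likelihood, TMM, filterByExpr with a minimum count of 10) over all genes, with Benjamini-Hochberg adjustment. The study left out 1 library per group and does not name them, so all 8 entered. Alternatives were RLE or no scaling factors, DESeq2 1.42.0, limma 3.58.1, no filter, each library left out, and WT 1120 and GOAT KO 1139 left out. RPKM used the exon union of protein-coding GENCODE vM21 transcripts, with 62 members matched by identifier and 30 by symbol. No 2 libraries of a group agreed within sampling noise. Libraries are of separate mice. Library totals of 16147216 to 19481798 reads set the precision of low genes. Named genes were the members with an unadjusted p under 0.05, per complex the 2 highest in RPKM and the highest and lowest in fold change, all paralogues, all members on chromosome 4 from 100 to 150 Mb or within 5 Mb of Mboat4, the Sdh genes and the called context genes.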

Additional observations from a re-analysis of the deposited data

Results flagged for a closer look

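In groups of 4, a library was picked out where its gap to the nearest other took most of the group's range, by Dixon's test at the 95% level. Of 84 groups examined, 8 were picked out, where chance gives about 1 in 20. In WT 1118, Ndufa9 had 64.6 CPM against 78.6 to 81.2 in the other WT libraries, Ndufs5 had 3.16 CPM against 6.43 to 6.78, Sdhd had 99.7 CPM against 125.1 to 129.7, and the summed complex II level was 575.0 CPM against 662.9 to 680.8. All 4 were low values of the library that was low in most members. In GOAT KO 1140, Sdha had 355.4 CPM against 330.6 to 332.3 CPM. In GOAT KO 1139, Cox8b had 1.62 CPM against 0 to 0.154 CPM. In WT 1121, Cox7b2 had 0.0545 CPM, which is 1 read, against 0 in the others, and the Ndufv3 skipping share was 74.4% against 80.3% to 81.0%.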

How the results depend on the processing

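No paired analysis was possible because the groups share no replicate numbers. The count of members higher in GOAT KO, 2 with all libraries, was 4 without the filter on low counts (Ndufb9 and Cox8c, which had 5 reads in all, were added), 20 without WT 1120 and GOAT KO 1139, 16 without WT 1118 and WT 1120, 15 without these and GOAT KO 1139, and 0 to 21 with single libraries left out: 21 without WT 1120, 0 without GOAT KO 1140 or GOAT KO 1141, and only Ndufa9 without WT 1121, GOAT KO 1139 or GOAT KO 1146. The share of all genes by the same rule is given above for all 8 libraries and for the sets without WT 1118, WT 1120 or both. For the other settings it is not given, so those counts cannot be read against a background. The count lower, 0, became 1 without WT 1118, WT 1120 and GOAT KO 1139. The sets that leave out both WT 1118 and WT 1120 were added after seeing the data. The cause of these moves was not tested. The median of all members ran from 0.02 to 0.11 with single libraries left out. The Atp5c1 difference, 1.92 percentage points, ran from -1.17 to 4.39. The Mboat4 log2 ratio of 2.21 was 2.15 without WT 1120 and GOAT KO 1139 (exact permutation p = 0.1, the smallest that 3 against 3 allow). The NRF1-type share became 28.9% with any central base. Without WT 1120 and GOAT KO 1139, 7 of the 86 members changed sign, and without WT 1118 20 did. Of the genes named by rule, those that changed sign, none past the threshold, were Ndufa6 (0.015), Cox6b2 (0.068) and Cox7a1 (-0.199) without WT 1120 and GOAT KO 1139, and Cox6b2 (0.003) with limma-voom. With single libraries left out the log2 fold change ran from -0.416 to 0.006 for Ndufs5, -0.042 to 0.025 for Sdha, -0.017 to 0.097 for Sdhd, -0.057 to 0.029 for Cox6a1, -0.238 to 0.099 for Ndufa4l2, -0.082 to 0.092 for Atp5g1, -0.024 to 0.062 for Cox6b1, -0.051 to 0.075 for Cox6b2, -0.127 to 0.285 for Cox7a1 and -0.072 to 0.048 for Cox7a2l. Low read counts widen the intervals of the junction shares.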
